A study of Mus musculus with 19 samples.

Results

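The miR-17-92 and miR-106b-25 clusters were represented by 20 of the 1148 miRNA rows that the count files of all 19 libraries listed. Members were taken by name: every row called mmu-miR-17, miR-18a, miR-19a, miR-19b, miR-20a, miR-92a, miR-106b, miR-93 or miR-25, with both arms of each precursor and numbered copies. Of the 20, 12 belong to miR-17-92, 6 to miR-106b-25, and 2 are 5p arms of the second copies of miR-19b and miR-92a on the X chromosome. The series profiled small RNA from microdissected tissue of CA1, a subregion of the hippocampus, in C57B/6JRj mice of wild-type genotype. The aged SAHA group (6 libraries) came from mice of 20 months that drank SAHA, an inhibitor of histone deacetylases also known as vorinostat, at 0.67 g per litre of water with 18 g per litre of cyclodextrin. The aged vehicle group (5 libraries) had the same age and 18 g per litre of cyclodextrin alone, and the design text gives 4 weeks of treatment for aged animals. The young vehicle group (8 libraries) came from mice of 3 months with the same vehicle, for which the sources used here give no duration. All groups shared the genotype, the oral route and the cyclodextrin. Whether libraries came from separate animals is not stated beyond their numbering, so p-values set group differences against the spread between these libraries, estimated over all 3 groups.

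Each cluster is transcribed as one primary RNA from which several hairpins are cut, and each hairpin can give a mature miRNA from its 5p and its 3p arm. A miRNA finds its targets mainly through its seed, the bases near its 5′ end, so that members with the same seed are thought to repress overlapping sets of mRNAs. The miR-17-92 cluster, also called oncomir-1, is a known target of the transcription factors Myc and E2F, promotes proliferation and survival, and in the brain is best known from neural progenitors and newborn neurons of the hippocampus; miR-106b-25 is its paralogue inside the replication gene Mcm7.

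Sequences of 19 of the 20 names were matched in RefSeq (GRCm38.p6); miR-19a-5p had no entry. The 19 names hold 13 different seeds (bases 2 to 8), and the mature forms are 21 to 24 bases long. The forms below are those the results turn on, with the seed in capitals. The first set shares one seed across both clusters:
miR-17-5p: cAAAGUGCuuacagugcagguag
miR-20a-5p: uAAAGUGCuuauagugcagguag
miR-106b-5p: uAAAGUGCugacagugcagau
miR-93-5p: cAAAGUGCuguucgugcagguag
The second set pairs the most abundant product of each cluster:
miR-92a-3p: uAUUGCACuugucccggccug
miR-25-3p: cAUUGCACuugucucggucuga
The third set holds the miR-19 pair:
miR-19a-3p: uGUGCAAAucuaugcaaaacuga
miR-19b-3p: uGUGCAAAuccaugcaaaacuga
Further forms described in detail below have seeds found in no other of the 19 matched members:
miR-18a-5p: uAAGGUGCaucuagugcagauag
miR-106b-3p: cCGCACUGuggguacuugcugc
The precursor of miR-106b is shown because its arms shifted against each other, with the 5p arm as the first and the 3p arm as the second stretch in capitals:
Mir106b hairpin: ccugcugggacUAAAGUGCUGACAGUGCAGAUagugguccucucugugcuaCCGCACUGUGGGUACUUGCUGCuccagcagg
Within the first set, counted from the 5′ end, miR-17-5p and miR-20a-5p differ by C1U and C12U, and miR-17-5p and miR-106b-5p by C1U, U10G and G20A over the 21 positions they share. miR-19a-3p and miR-19b-3p differ at a single base, U11C, and miR-92a-3p and miR-25-3p by U1C, C14U and C18U. The sources used here do not give how reads matching more than 1 of these were counted.

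In GRCm38 the 6 hairpins of miR-17-92 lie on the plus strand of chromosome 14 from 115043671 to 115044506, a span of 836 bases inside an exon of the long non-coding RNA Mir17hg. The 3 hairpins of miR-106b-25 lie on the minus strand of chromosome 5 from 138165321 to 138165818, a span of 498 bases inside intron 13 of the protein-coding transcript Mcm7-201. Mir25 and Mir93, but not Mir106b, are also within an exon of Mcm7-202, a transcript annotated as a retained intron. The second copies of miR-19b and miR-92a lie on the minus strand of the X chromosome from 52741838 to 52742066, in no annotated gene. Mature miR-19b-3p and miR-92a-3p are identical from both loci, so their counts cannot be divided between chromosome 14 and the X chromosome.

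Libraries held 3585489 to 6808281 counts assigned to miRNAs: 4211365 to 5410804 in aged SAHA, 4642434 to 5249168 in aged vehicle and 3585489 to 6808281 in young vehicle. Levels are given as CPM, each count over the library's TMM-scaled total and multiplied up to a total of 1e6 (edgeR). Neuron-enriched miRNAs were looked up, and all 17 were detected, with means of 38684 CPM for miR-9-5p, 31834 CPM for miR-128-3p and 5537 CPM for miR-124-3p. Their presence does not test the CA1 label, since the list is not specific to that region. Aged SAHA library 1 correlated least with its own group (mean r of log2 CPM 0.990), and it and young vehicle library 6 were known from earlier results to stand apart, so results that depend on them are given without them. In bulk tissue, fewer cells of a type and less RNA per cell cannot be told apart.

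The 20 members made up 0.320% ± 0.0268 of all miRNA counts (SD, n = 19 libraries). Of these counts, 94.5% ± 0.372 came from 3 mature forms: miR-92a-3p with 56.0% ± 1.61, miR-25-3p with 23.8% ± 1.70 and miR-93-5p with 14.7% ± 1.92. Within miR-17-92, miR-92a-3p held 95.1% ± 0.420 of the counts, and its mean CPM was 38.8-fold that of miR-19b-3p, 98.0-fold that of miR-17-5p and 900.1-fold that of miR-18a-5p. Within miR-106b-25, miR-25-3p held 57.9% ± 4.10 and miR-93-5p 35.8% ± 4.00, and miR-25-3p stood 24.5-fold above miR-106b-5p.

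**Figure D1:**
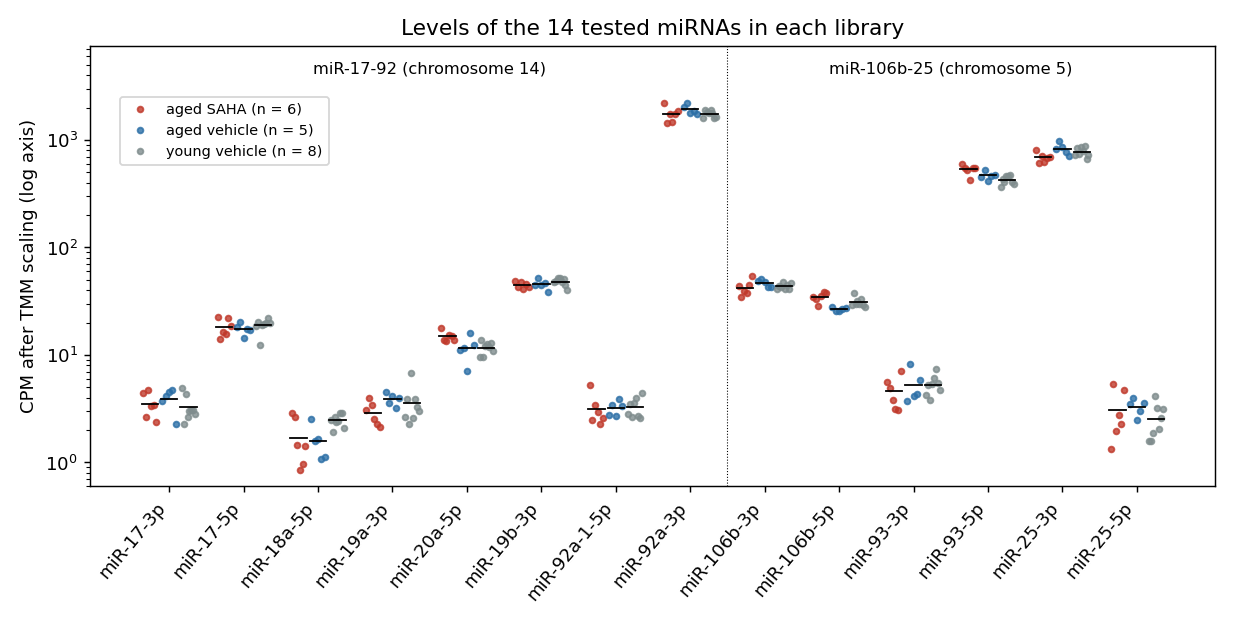
CPM after TMM scaling (log axis) of the 14 members with enough counts to be tested; each point is a library, coloured by group, and each horizontal line is a group mean. miR-92a-3p, miR-25-3p and miR-93-5p lie far above the rest, and the spread between libraries is widest for the members under 10 CPM.

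Over all 19 libraries the order of mean levels began with miR-92a-3p at 1799 ± 202 CPM (SD), miR-25-3p at 762 ± 93.3 CPM and miR-93-5p at 470 ± 64.3 CPM. These 3 did not overlap one another in any library. They ranked 62nd, 90th and 113th of the 1148 rows by mean CPM. A second tier followed with miR-19b-3p at 46.4 ± 4.01 CPM, miR-106b-3p at 44.0 ± 4.64 CPM and miR-106b-5p at 31.0 ± 4.20 CPM. Neighbours in this tier overlapped, since miR-19b-3p ranged from 38.5 to 52.4 CPM, miR-106b-3p from 34.6 to 54.4 CPM and miR-106b-5p from 25.6 to 38.2 CPM. miR-17-5p, the founder of the family, came next at 18.4 ± 2.82 CPM, and its near-identical relative miR-20a-5p had 12.7 ± 2.52 CPM; their ranges of 12.45 to 22.5 CPM and 7.05 to 17.9 CPM overlapped. The next 5 tested members lay between 2.91 CPM (miR-25-5p) and 5.06 CPM (miR-93-3p), with overlapping ranges, and miR-18a-5p was the lowest tested member at 1.998 ± 0.7099 CPM, or 4 to 17 counts per library.

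The other 6 members were not tested because they failed the filter on low counts. miR-18a-3p was found in all 19 libraries with 1 to 11 counts, and miR-20a-3p in 18 libraries with at most 5. miR-19a-5p had 10 counts in 6 libraries and miR-19b-1-5p had 6 counts in 5 libraries. miR-19b-2-5p and miR-92a-2-5p, the arms that only the X-linked copies can give, had 0 counts in all 19 libraries, which allows a pooled level of up to 0.0306 CPM (3 counts, counting error only). Of the 5p arms specific to chromosome 14, miR-92a-1-5p was found in every library at 2.30 to 5.20 CPM, but miR-19b-1-5p was nearly absent too. The X-linked locus as a whole was not without reads. The neighbouring hairpin miR-363 gave 120 counts of its 3p arm, in 18 libraries.

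Which arm of a hairpin prevailed differed between members. The 5p arm was the more abundant for miR-17, miR-18a, miR-20a and miR-93, and the 3p arm for miR-19a, miR-19b, miR-92a and miR-25. On the log2 scale, 5p over 3p averaged 6.55 ± 0.392 for miR-93 and 2.38 ± 0.473 for miR-17 (SD, n = 19). It averaged -8.07 ± 0.589 for miR-25 and -9.11 ± 0.272 for miR-92a-1. miR-106b was the most balanced hairpin of both clusters, at -0.51 ± 0.252, and only 32 of the 188 arm pairs of the series (17.02%) had an average within 1 log2 unit of balance.

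Aged SAHA against aged vehicle addressed what the treatment did in old animals. A single member of the 14 tested, miR-106b-5p, rose in aged SAHA, and none fell. miR-106b-5p, like miR-93-5p of the same cluster, shares the miR-17 seed. Of all 509 tested miRNAs 22 were called (4.32%), 6 of them higher (1.18%), with calls made in edgeR's quasi-likelihood test at a p under 0.05 after Benjamini-Hochberg adjustment over the 509. Unadjusted p fell under 0.05 for 4 of the 14 members (miR-106b-5p, miR-25-3p, miR-20a-5p and miR-93-5p), against 19.4% of all tested miRNAs. The median log2 fold change was -0.07 over the 14 members and -0.0077 over all 509, and 5 of the 14 were positive against 48.7% of all.

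miR-106b-5p stood at 34.3, 33.2, 28.6, 35.3, 38.2 and 38.1 CPM in the aged SAHA libraries, against 27.8, 25.6, 25.7, 26.6 and 27.1 CPM in aged vehicle. All 6 aged SAHA libraries lay above all 5 aged vehicle libraries, a separation upward that 1.57% of the tested miRNAs showed. The 5 aged vehicle values happened to lie close together, with an SD of 0.924 CPM against 3.56 CPM in aged SAHA. They rest on 124 to 144 counts per library, and their spread was not compared with counting error. The separation leans on this closeness, since the nearest values of the groups were 28.6 and 27.8 CPM. The log2 fold change was 0.38 ± 0.09 (SE; edgeR, adjusted p = 0.0176). The call was lost without aged SAHA library 6 (adjusted p = 0.0524, edgeR) and without aged vehicle library 3 (adjusted p = 0.0531, edgeR), with log2 fold changes of 0.35 and 0.36. It was also lost with the library number as a replicate block (0.36, adjusted p = 0.0558, edgeR). The labels do not say whether the numbers pair libraries.

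**Figure D2:**
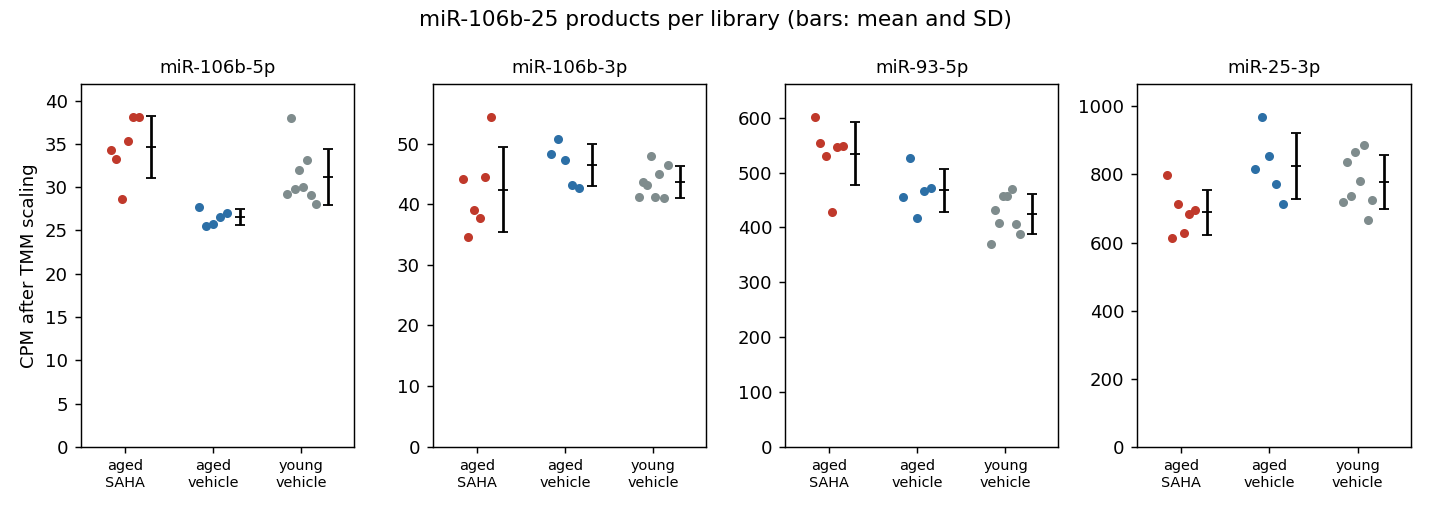
CPM after TMM scaling of 4 products of miR-106b-25 in each library (points), with the mean and SD of each group in black and each axis starting at 0. For miR-106b-5p the 6 aged SAHA libraries lie above the 5 aged vehicle libraries, whereas the groups overlap for miR-106b-3p, miR-93-5p and miR-25-3p.

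No other product of the same primary RNA was called in this comparison. Its own 3p arm, miR-106b-3p, had 34.6, 41.6 and 54.4 CPM (lowest, median and highest) in aged SAHA, against 48.3, 50.7, 47.3, 43.1 and 42.7 CPM in aged vehicle, a log2 fold change of -0.13 ± 0.10 (edgeR, adjusted p = 0.519). miR-93-5p, with the miR-17 seed, had 427, 547 and 602 CPM (lowest, median and highest) in aged SAHA, against 455, 526, 418, 467 and 472 CPM in aged vehicle. In aged SAHA 5 of the 6 libraries lay above the whole aged vehicle group, and the log2 fold change was 0.19 ± 0.08 (edgeR, adjusted p = 0.195). miR-25-3p, which carries the miR-92 seed, had 614, 690 and 800 CPM (lowest, median and highest) in aged SAHA, against 817, 970, 853, 772 and 713 CPM in aged vehicle. Its log2 fold change was negative, -0.26 ± 0.09 (edgeR, adjusted p = 0.0879), and 4 of the 6 aged SAHA libraries lay below the lowest aged vehicle library, with library 3 level with it at 713 CPM and library 1 within the aged vehicle range. Without aged SAHA library 1 miR-25-3p was called, with a log2 fold change of -0.31 (edgeR, adjusted p = 0.0369). The passenger arms miR-93-3p (log2 fold change -0.20 ± 0.24) and miR-25-5p (-0.13 ± 0.30) had 7 to 41 counts per library in these groups and wide errors.

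A ratio of counts within a library does not depend on scaling between libraries. The ratio of miR-93-5p to miR-25-3p counts was 0.753, 0.903, 0.744, 0.679, 0.800 and 0.787 in the aged SAHA libraries. It was 0.557, 0.542, 0.490, 0.605 and 0.662 in aged vehicle and ranged from 0.513 to 0.611 in young vehicle. Means were 0.778 ± 0.0747 in aged SAHA (SD, n = 6), 0.571 ± 0.0654 in aged vehicle (n = 5) and 0.547 ± 0.0347 in young vehicle (n = 8). The lowest aged SAHA value thus lay above the highest value of either vehicle group. The separation was not particular to this pair, though the next ratio has the same numerator. miR-93-5p over miR-92a-3p, a ratio across both clusters, was 0.274 to 0.385 in aged SAHA, against 0.226 to 0.268 in aged vehicle and 0.224 to 0.263 in young vehicle. The miR-93-5p to miR-25-3p ratio was not among those tested and no background over other pairs was computed. The ratio of miR-106b-5p to miR-25-3p likewise ranged from 0.0401 to 0.0562 in aged SAHA, against 0.0264 to 0.0380 in aged vehicle, but young vehicle overlapped aged SAHA with 0.0369 to 0.0455. The other member ratios computed overlapped between aged SAHA and aged vehicle. miR-93-5p over miR-106b-5p was 12.1 to 18.5 against 16.2 to 20.6, and miR-25-3p over miR-92a-3p 0.364 to 0.428 against 0.404 to 0.479. miR-20a-5p over miR-92a-3p, miR-17-5p over miR-20a-5p and miR-92a-3p over miR-17-5p overlapped too.

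The 5p to 3p ratio of miR-106b, which uses counts of one hairpin alone, had the smallest adjusted p of any member result in this comparison. The 5p arm made up 43.7%, 49.0%, 42.3%, 48.4%, 46.2% and 41.2% of the counts of both arms in the aged SAHA libraries, against 36.5%, 33.5%, 35.2%, 38.2% and 38.8% in aged vehicle. In young vehicle it ranged from 37.6% to 46.6%, overlapping both. Means were 45.1% ± 3.24 in aged SAHA, 36.4% ± 2.16 in aged vehicle and 41.6% ± 2.52 in young vehicle (SD). These shares rest on 345 to 431 counts per library in aged SAHA and on 325 to 389 in aged vehicle.

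On the log2 scale, with 0.5 added to each arm, 5p over 3p was -0.28 ± 0.189 in aged SAHA and -0.80 ± 0.135 in aged vehicle (SD), and no aged SAHA library fell within the aged vehicle range. The difference was 0.52 ± 0.10 (SE; limma over the 188 arm pairs, adjusted p = 0.000887). It was the single call among the 5 member hairpins with both arms tested, while 19 of all 188 pairs were called (10.1%). Calls in this comparison leaned to the 5p side across the series: 18 were higher (9.57%), 1 was lower (0.532%), and 12 pairs (6.38%) separated upward as miR-106b did. Shifts of this kind were thus found in hairpins outside these clusters too. The median difference was 0.0579 over all 188 pairs, of which 59.6% were positive, and 0.19 over the 5 member hairpins, all of which were positive. The other 4 differed by 0.37 ± 0.21 for miR-93, 0.19 ± 0.28 for miR-17, 0.0843 ± 0.22 for miR-92a-1 and 0.0157 ± 0.33 for miR-25, with adjusted p of 0.254 or more (limma).

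**Figure D3:**
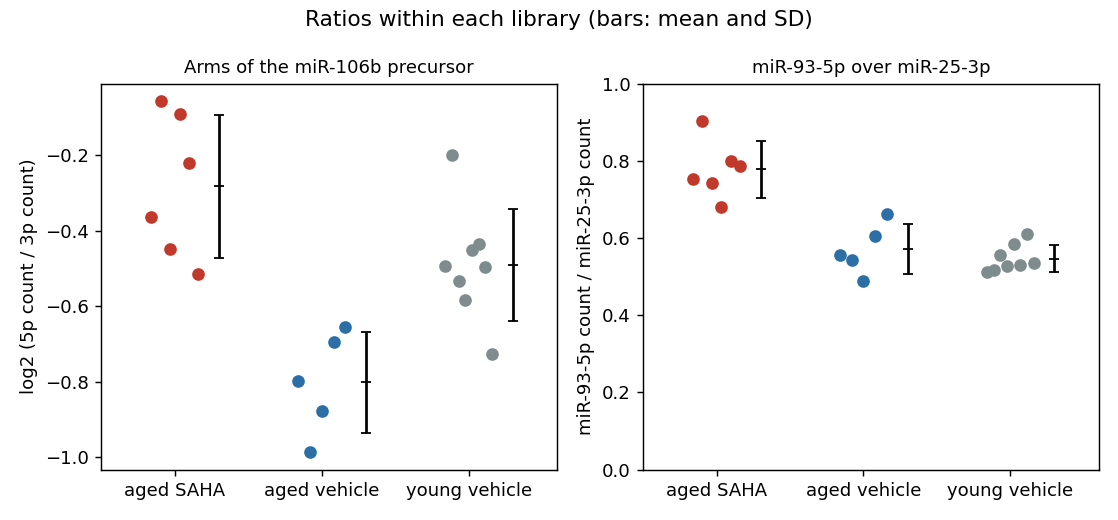
Left, log2 of the 5p to the 3p count of the miR-106b hairpin (0.5 added to each) in each library; right, the count of miR-93-5p over that of miR-25-3p. Points are libraries and black bars the mean and SD of each group. In the left panel aged SAHA lies above aged vehicle, and young vehicle has a mean between them but overlaps both. In the right panel aged SAHA lies above both vehicle groups.

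No member of miR-17-92 was called in aged SAHA against aged vehicle. miR-20a-5p came nearest, with 13.5, 14.4 and 17.9 CPM (lowest, median and highest) in aged SAHA, against 11.1, 11.6, 7.05, 16.1 and 12.4 CPM in aged vehicle. All 6 aged SAHA libraries lay above the aged vehicle median but only 1 lay above its highest library, and the log2 fold change was 0.35 ± 0.15 (edgeR, adjusted p = 0.195). The most abundant member, miR-92a-3p, had 1439, 1751 and 2197 CPM (lowest, median and highest) in aged SAHA, against 2015, 2199, 1779, 1865 and 1763 CPM in aged vehicle. Its log2 fold change was -0.14 ± 0.09 (edgeR, adjusted p = 0.445), and the groups overlapped across most of their range.

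miR-17-5p, best known as an E2F1-targeting member, averaged 18.3 ± 3.51 CPM in aged SAHA and 17.5 ± 2.21 CPM in aged vehicle, a log2 fold change of 0.0608 ± 0.14. miR-19b-3p, of the family known as the key oncogenic component of the cluster, averaged 44.9 ± 3.13 CPM in aged SAHA and 45.4 ± 4.71 CPM in aged vehicle (log2 fold change -0.0150 ± 0.09). Its relative miR-19a-3p had 2.13, 2.81 and 4.01 CPM (lowest, median and highest) in aged SAHA, against 4.498, 3.595, 4.15, 3.22 and 3.95 CPM in aged vehicle. Of the 6 aged SAHA libraries 4 lay below the whole aged vehicle group, with a log2 fold change of -0.40 ± 0.24 (edgeR, adjusted p = 0.388) on 9 to 23 counts per library. The remaining 3 members of miR-17-92, miR-17-3p, miR-18a-5p and miR-92a-1-5p, had log2 fold changes from -0.13 to 0.0991 with SE of 0.22 to 0.31.

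Read by seed, the sums over members went opposite ways in mean without a test. The 4 members with the seed AAAGUGC summed to 603 ± 60.6 CPM in aged SAHA, 523 ± 42.4 CPM in aged vehicle and 485 ± 39.8 CPM in young vehicle (SD). The pair with AUUGCAC, miR-92a-3p and miR-25-3p, summed to 2436 ± 344 CPM in aged SAHA, 2749 ± 266 CPM in aged vehicle and 2535 ± 180 CPM in young vehicle. The miR-19 pair, with GUGCAAA, summed to 47.8 ± 3.32 CPM in aged SAHA, 49.3 ± 4.56 CPM in aged vehicle and 51.6 ± 4.74 CPM in young vehicle. Most of the first sum is miR-93-5p and most of the second is miR-92a-3p, so each sum largely restates that member.

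Aged vehicle against young vehicle addressed the effect of age. None of the 14 tested members was called by edgeR, DESeq2 or limma-voom, where edgeR called 11 of all 509 (2.16%). At an unadjusted p under 0.05, 2 of the 14 members passed (miR-106b-5p and miR-18a-5p), against 15.7% of all tested miRNAs. The median log2 fold change was 0.0430 over the members and -0.0030 over all 509, and 7 of the 14 were positive against 49.1% of all. The SE was 0.21 to 0.29 for members under 6 CPM.

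miR-106b-5p had 27.8, 25.6, 25.7, 26.6 and 27.1 CPM in aged vehicle, against 28.1, 29.9 and 38.0 CPM (lowest, median and highest) in young vehicle. All 5 aged vehicle libraries lay below all 8 young vehicle libraries, a separation downward that 2.16% of the tested miRNAs showed, though its log2 fold change of -0.23 ± 0.09 missed the threshold (edgeR, adjusted p = 0.204). Its arm ratio had a difference of -0.31 ± 0.10 (limma, adjusted p = 0.178), in a comparison where 1 of 188 pairs was called (0.532%) and none of the 5 member hairpins. These values use the same 5 aged vehicle libraries as the comparison with SAHA, so that the opposite signs in both are not independent of each other.

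miR-18a-5p, which differs from the miR-17 family in its seed, had 2.54, 1.60, 1.66, 1.07 and 1.13 CPM in aged vehicle, against 1.94, 2.45 and 2.91 CPM (lowest, median and highest) in young vehicle. Of the 5 aged vehicle libraries 4 lay below every young vehicle library. The log2 fold change was -0.61 ± 0.28 (edgeR, adjusted p = 0.262), on 5 to 17 counts per library. The abundant members differed little: log2 fold changes were 0.13 ± 0.09 for miR-92a-3p, 0.0870 ± 0.08 for miR-25-3p and 0.14 ± 0.08 for miR-93-5p (edgeR, adjusted p of 0.377 or more).

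Aged SAHA against young vehicle combined age and treatment. miR-93-5p alone of the 14 members rose, where 71 of all 509 tested miRNAs were called (13.9%), 27 of them higher (5.3%) and 44 lower (8.64%). That split depended on scaling: by library size alone it was 51 higher and 33 lower, with DESeq2 size factors it was 38 and 42, and it was 38 and 36 when TMM ignored the 3 most abundant miRNAs. Unadjusted p fell under 0.05 for 3 of the 14 members, against 32.8% of all. The median log2 fold change was -0.0431 over the members and -0.0281 over all tested miRNAs, and 5 of the 14 were positive against 45.0% of all.

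miR-93-5p had 427, 547 and 602 CPM (lowest, median and highest) in aged SAHA, against 369, 420 and 470 CPM in young vehicle. Of the 6 aged SAHA libraries 5 lay above every young vehicle library, with a log2 fold change of 0.34 ± 0.08 (edgeR, adjusted p = 0.00393). Aged vehicle lay between, with a mean of 468 ± 38.9 CPM against 535 ± 58.0 CPM in aged SAHA and 424 ± 36.5 CPM in young vehicle. Neither step on its own was called. The ratio of its arms was also called, at 6.88 ± 0.403 in aged SAHA and 6.32 ± 0.217 in young vehicle on the log2 scale (difference 0.56 ± 0.19, limma, adjusted p = 0.0420), where 26 of 188 arm pairs were called (13.8%). That call rests on 15 to 40 counts of miR-93-3p per library and was lost in 13 of the 22 alternatives that gave it a value, among them leaving out any of aged SAHA libraries 2 to 5, with adjusted p of up to 0.121 (limma).

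miR-20a-5p had 13.5, 14.4 and 17.9 CPM (lowest, median and highest) in aged SAHA, against 9.52, 12.0 and 13.7 CPM in young vehicle, a log2 fold change of 0.35 ± 0.14 (edgeR, adjusted p = 0.0854). Of the 6 aged SAHA libraries 4 lay above every young vehicle library. It passed the threshold with library size scaling, with DESeq2, with the fit of these groups alone and without aged vehicle library 3 (adjusted p of 0.0419 to 0.0492). miR-25-3p, with 614, 690 and 800 CPM (lowest, median and highest) in aged SAHA against 665, 759 and 887 CPM in young vehicle, had a log2 fold change of -0.17 ± 0.08 (edgeR, adjusted p = 0.132). miR-106b-5p had 0.15 ± 0.08 (edgeR, adjusted p = 0.206), and its arm ratio a difference of 0.21 ± 0.09 (limma, adjusted p = 0.130). This comparison shares its libraries with the others.

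**Figure D4:**
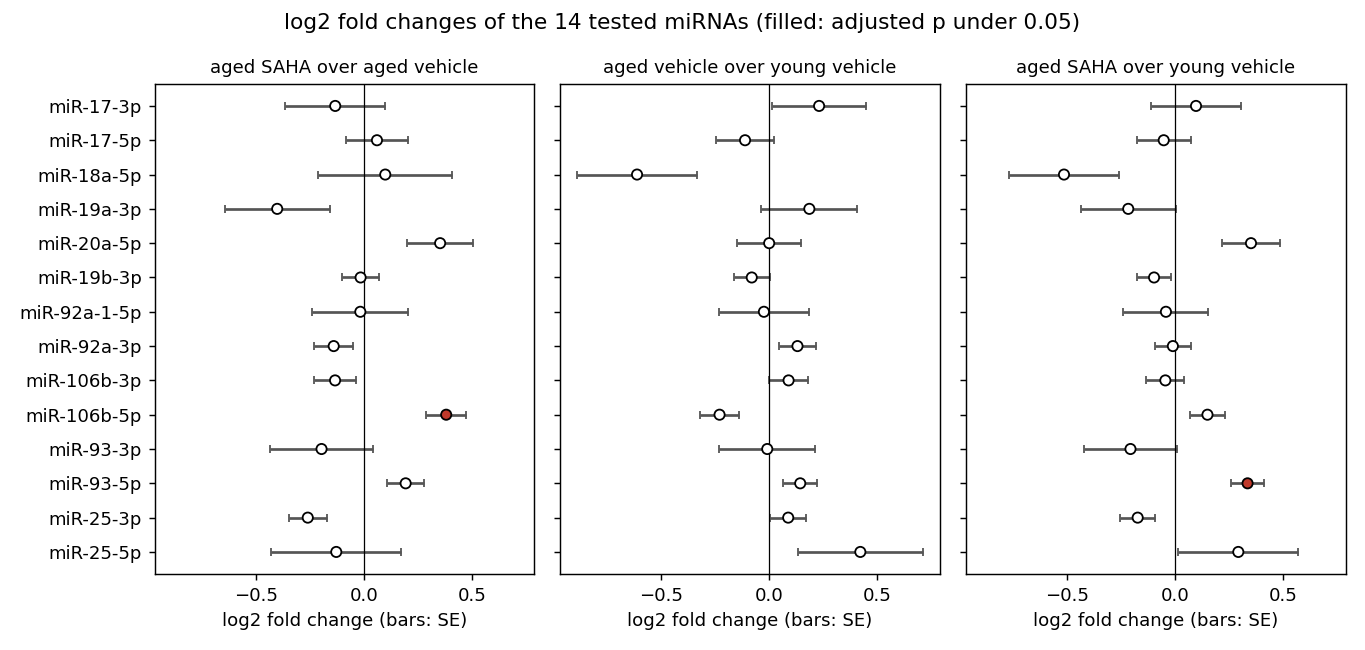
log2 fold changes of the 14 tested members (edgeR) in 3 comparisons, with SE as horizontal bars and filled points for an adjusted p under 0.05. The filled points are miR-106b-5p at 0.38 for aged SAHA over aged vehicle and miR-93-5p at 0.34 for aged SAHA over young vehicle; the bars are widest for members under 6 CPM.

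The paralogous cluster on the X chromosome, miR-106a-363, also holds the second copies of miR-19b and miR-92a, whose 3p counts cannot be divided between loci. Its 8 other rows (miR-106a, miR-18b, miR-20b and miR-363) had too few counts for a test. miR-106a-3p and miR-18b-3p had no count, miR-106a-5p had 5 counts in all 19 libraries together and miR-20b-5p 14, and miR-363-3p, with 120, was the most abundant. The summed level of the 8 was 1.71 CPM in aged SAHA, 1.29 CPM in aged vehicle and 1.4995 CPM in young vehicle. Among seed relatives elsewhere in the genome, miR-367-3p, with the miR-92 seed, had no count. miR-32-5p, which has that seed too, averaged 13.7 CPM over all libraries. Its log2 fold change was 0.18 ± 0.16 in aged SAHA over aged vehicle (edgeR, adjusted p = 0.595), 0.26 ± 0.15 in aged vehicle over young vehicle (adjusted p = 0.385) and 0.44 ± 0.14 in aged SAHA over young vehicle (adjusted p = 0.0363).

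Markers of cell types were followed beside these results. Neuron-enriched miRNAs summed to 79969 CPM in aged SAHA (76507 to 83438), 93509 CPM in aged vehicle (89838 to 96040) and 94177 CPM in young vehicle. The 17 rows include both arms and copies of some miRNAs. In aged SAHA against aged vehicle 3 of the 17 fell (edgeR): miR-128-3p (log2 fold change -0.44 ± 0.08), miR-153-5p (-0.38 ± 0.11) and miR-9-3p (-0.28 ± 0.07). There 16 of all 509 tested miRNAs fell. Of the 17, 16 were negative and 1 was positive, against 48.7% positive over all tested miRNAs. The same 3 fell in aged SAHA against young vehicle, where miR-93-5p was called: miR-128-3p (-0.46 ± 0.08), miR-153-5p (-0.40 ± 0.10) and miR-9-3p (-0.24 ± 0.06). There 8.64% of all tested miRNAs fell, and 2 of the 17 were positive against 45% of all. The median log2 fold change over the 17 was -0.18 in aged SAHA against aged vehicle and -0.13 against young vehicle. miR-124-3p hardly moved, with -0.0093 ± 0.06 in aged SAHA against aged vehicle (edgeR, adjusted p = 0.927). Against young vehicle it had -0.0076 ± 0.05 (edgeR, adjusted p = 0.944). Its other arm, miR-124-5p, had -0.26 ± 0.09 in aged SAHA against aged vehicle (edgeR, adjusted p = 0.0882). The neuron-enriched sum is weighted to its most abundant rows, miR-9-5p (38684 CPM over all libraries) and miR-128-3p (31834 CPM). Oligodendrocyte miRNAs summed to 5033 CPM in aged SAHA (3740 to 8102), 4648 CPM in aged vehicle (4052 to 5627) and 3799 CPM in young vehicle (3337 to 4511). In aged SAHA against young vehicle, where 5.3% of all tested miRNAs rose, 1 of the 5 rose (edgeR), miR-219-2-3p, with a log2 fold change of 0.61 ± 0.13. There 4 of the 5 were positive, while miR-219-1-3p was negative (-0.35 ± 0.17, edgeR, adjusted p = 0.164). Microglial and myeloid miRNAs summed to 479 CPM in aged SAHA (360 to 790), 421 CPM in aged vehicle (374 to 535) and 338 CPM in young vehicle (312 to 410). Of these, 2 of 4 tested rose in aged SAHA against young vehicle (edgeR), against 5.3% of all: miR-142-5p (0.49 ± 0.13) and miR-155-5p (1.68 ± 0.31). No row of these 3 lists was at 0.

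Aged SAHA library 1 held the highest oligodendrocyte and microglial sums and also the highest miR-93-5p. Without that library miR-93-5p was still called in aged SAHA against young vehicle (log2 fold change 0.30, edgeR, adjusted p = 0.00882), as was miR-106b-5p in aged SAHA against aged vehicle (0.38, adjusted p = 0.0196). The part of cell composition in these results was not tested. Erythrocyte miRNAs, followed because miR-92a-3p and miR-25-3p are also abundant in blood cells, summed to 2786 CPM in aged SAHA (2363 to 3172), 2859 CPM in aged vehicle (2622 to 3122) and 3232 CPM in young vehicle (2786 to 4050), and none of the 5 was called in any comparison. No endothelial or choroid plexus marker was called either, and in the choroid list miR-211-3p was at 0. Endothelial and mural miRNAs varied widely within each group. They summed to 38635 CPM in aged SAHA (26727 to 61235), 33437 CPM in aged vehicle (26032 to 53181) and 36209 CPM in young vehicle (25989 to 65592). The highest sums were in aged SAHA library 3, aged vehicle library 2 and young vehicle library 4. In the muscle list miR-1a-3p rose in aged SAHA against aged vehicle (log2 fold change 0.99 ± 0.25, edgeR, adjusted p = 0.0217) and against young vehicle (0.79 ± 0.22, adjusted p = 0.0163), while miR-1a-2-5p and miR-206-5p were at 0.

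Across the 19 libraries, the miRNAs outside the clusters with levels most like those of a member were found by Pearson's r of log2 CPM, which reflects groups, depth and scaling together. For miR-92a-3p these were miR-30a-3p (r = 0.80), miR-1249-3p (0.79) and miR-338-5p (0.75). For miR-25-3p they were miR-30a-3p (0.76), miR-30e-3p (0.73) and miR-151-3p (0.70), so that the most abundant product of each cluster had the same nearest miRNA. For miR-106b-5p they were miR-148b-5p (0.72), miR-22-5p (0.68) and miR-320-3p (0.64), the lowest values of the 4. For miR-93-5p they were miR-181b-5p (0.90), miR-219-2-3p (0.88) and miR-21-5p (0.88).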

How the data were processed

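The authors deposited raw counts, whole numbers of reads for each mature miRNA in each library. The submitters' processing notes name CASAVA 1.8.2, cutadapt, STAR, HTSeq and mm10, with no order or settings; the miRNA annotation and the treatment of reads with several matches are not given in the sources used here. The 4 HTSeq summary lines were all 0 and were left out, so the share of unassigned reads is unknown. Reads carry no molecular identifiers, so floors cover counting error only.

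Rows kept by filterByExpr (minimum count 10, minimum total 15; 509 kept, 639 not, 255 of them never detected) were scaled by TMM and fitted in edgeR 4.0.16 (R 4.3.3; quasi-likelihood, robust, 1 term per group, all 19 libraries). The SE was taken as the absolute log2 fold change over the square root of F. Arm ratios, log2 of (5p count + 0.5) over (3p count + 0.5), were tested with limma 3.58.1 (trend, robust) for 188 pairs. Alternatives included DESeq2 1.42.0 and limma-voom. The tests were tried on simulated data. No library was taken as a copy: the 53 within-group pairs gave a chi-square of 24.7 to 294 per degree of freedom, with r of 0.988 to 0.997. Sex and batch are not labelled and were not tested. Values were given in full for members called in any comparison, for the more abundant arm of each hairpin and for the 5 members with the smallest p in a comparison; for likeness, the 3 nearest miRNAs of the most abundant and the called members were named. The members, lists and named miRNAs were chosen with earlier results of these data known. Promoters were not examined.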

Additional observations from a re-analysis of the deposited data

Results flagged for a closer look

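In all, 2 levels stood apart from the rest of their group. miR-17-5p had 12.45 CPM in young vehicle library 3, where the next lowest library had 18.5 CPM. miR-19a-3p had 6.803 CPM in young vehicle library 4, the library with the fewest counts, where the next highest had 3.92 CPM. Neither member was called in any comparison. Chance flags about 1 in 20 groups. The 57 groups examined held either a member's levels or a hairpin's arm ratios, so that 2.85 flags are expected and 2 were found.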

How the results depend on the processing

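The counts were refitted under 29 alternatives and the arm ratios under 23. Of 1532 values so obtained for 57 single results, 1414 kept the direction and the side of the threshold, 16 fell short of it, 7 passed it and 95 changed sign. The 16 results that changed sign were all uncalled. The rise of miR-106b-5p in aged SAHA over aged vehicle kept its direction in all 29 (log2 fold change 0.35 to 0.43) and fell short in 3. Its arm ratio was called in all 23 (0.47 to 0.57, adjusted p of 0.000469 to 0.00455, limma). miR-93-5p in aged SAHA over young vehicle was called in all 29 (adjusted p of 0.000101 to 0.0299; edgeR, DESeq2 or limma).

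Libraries with the same number showed no common likeness: over 16 such pairs, r of deviations from group means was -0.33 to 0.34 (median 0.0014), with 3 over 0.1. The labels give no pairing, and these values do not test for a shared batch. With the replicate block, 0 members were called in aged SAHA over aged vehicle, miR-106b-5p having 0.36 (adjusted p = 0.0558, edgeR), and all miRNAs called numbered 15 there, 8 for age and 58 in aged SAHA over young vehicle.

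For age, all miRNAs called were 20 with DESeq2, 23 with limma-voom, 19 with only the groups compared, 18 without both libraries that stand apart, and 8 to 14 without 1 library. For aged SAHA over aged vehicle they were 46 with DESeq2, 46 with limma-voom, 37 without both and 11 to 33 without 1 library. Members called there were 2 with limma-voom and without both, miR-25-3p being added with -0.26 (adjusted p = 0.0427) and -0.31 (adjusted p = 0.0245), and 0 to 2 without 1 library. In aged SAHA over young vehicle they were 2 with library size scaling, DESeq2 and only the groups compared, and 1 to 2 without 1 library, miR-20a-5p being added. Member hairpins called there were 0 with both arms at a mean of 50 counts, which left miR-93 untested, 0 with only the groups compared, and 0 to 1 without 1 library.

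Values that changed sign, with the order DESeq2 factors, library size, top 3 out, no filter, minimum of 10 CPM, DESeq2 and both libraries out, were 0.0098, 0.0317, 0.0130, 0.0123, 0.0069, 0.0095 and 0.0046 for miR-20a-5p with age. For miR-93-3p with age they were 0.0029, 0.0244, 0.0058, 0.0026, 0.0027 (DESeq2), 0.0899 (block) and 0.0721 (both out), and for miR-92a-1-5p 0.0062 (library size). In aged SAHA over aged vehicle they were -0.17 (limma-voom) and -0.12 (both out) for miR-18a-5p, 0.0046 (limma-voom) and 0.000922 (only the groups compared) for miR-19b-3p, 0.000585 (only the groups compared) and 0.0239 (block) for miR-92a-1-5p, -0.0104 and 0.0259 (both out) for miR-17-5p and miR-25-5p, and -0.0325 (block) for the arms of miR-25. In aged SAHA over young vehicle miR-92a-3p had 0.0124, 0.0314, 0.0227, 0.0028, 0.0124 (DESeq2) and 0.0232 (only the groups compared), miR-17-5p 0.0091 (block) and the arms of miR-92a-1 0.0048 (block). The cause of these changes was not tested.

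Without 1 library, ranges crossed 0 with age for miR-20a-5p (-0.12 to 0.14), miR-92a-1-5p (-0.0745 to 0.0499) and miR-93-3p (-0.21 to 0.11). In aged SAHA over aged vehicle they did so for miR-17-5p (-0.0173 to 0.13), miR-18a-5p (-0.12 to 0.33), miR-19b-3p (-0.0558 to 0.0420), miR-25-5p (-0.37 to 0.0265), miR-92a-1-5p (-0.22 to 0.0621), miR-93-3p (-0.35 to 0.0273) and the arms of miR-25 (-0.20 to 0.26). In aged SAHA over young vehicle they did so for miR-17-3p (-0.0068 to 0.21), miR-17-5p (-0.12 to 0.0112), miR-92a-1-5p (-0.24 to 0.0507), miR-92a-3p (-0.0862 to 0.0507), miR-106b-3p (-0.13 to 0.0063) and the arms of miR-92a-1 (-0.13 to 0.0302). Members under 6 CPM had the fewest counts; how much of their error was counting error was not tested.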
